A study of Mus musculus with 25 samples.

Results

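Skin microRNAs of old mice were compared with those of middle-aged mice. The late-life group held the 10 libraries from male C57BL/6 mice of 24 and 30 months (5 at each age), and the midlife group the 10 libraries from mice of 9 and 15 months (5 at each age). C57BL/6 is an inbred laboratory strain. No treatment or altered allele is named for any of the 20 libraries, and total RNA from skin was the starting material. The members of the comparison were the miRNA hairpins that passed a filter on low counts in these libraries, 351 of the 1193 in the table. These 351 held 99.99% of the counts, and 271 of the remaining 842 were at 0 in all 20 libraries. Another 5 libraries, from mice of 2 months, were used only to place the midlife levels.

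A miRNA is cut from a hairpin precursor into a short strand that guides an Argonaute protein to messenger RNAs. Pairing rests mainly on the seed, the stretch just after the first base, so miRNAs with the same seed can repress the same targets. In skin, mir-203 and mir-205 are abundant in keratinocytes, the cells of the epidermis, mir-143 marks smooth muscle and stroma, and the miRNAs of the imprinted Dlk1-Dio3 region are high in growing tissue and decline as it matures.

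Total counts ran from 7200509 to 14005646 per library. There were 4 libraries that stood apart in some of the miRNAs described here: 24 months replicate 3 and 15 months replicate 1, both high in Dlk1-Dio3 miRNAs, and 30 months replicates 1 and 4, high in muscle miRNAs. Values without them are given beside the results that rest on them.

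The question was which miRNAs differ between late life and midlife when adjacent ages are pooled. Of the 351 miRNAs, 19 passed an adjusted p of 0.05 (edgeR quasi-likelihood test, Benjamini-Hochberg adjustment), which is 5.41% of those tested: 17 were higher in late life (4.84%) and 2 were lower (0.57%). Most rises were small, with 12 of the 17 under 1.5-fold, and the range was 1.22-fold to 2.72-fold. The largest was that of mir-184, an epithelial miRNA. The falls, of mir-34c and mir-380, were 2.17-fold and 2.27-fold. At an unadjusted p under 0.05 there were 51 higher (14.5%) and 23 lower (6.55%).

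The sequences of the called miRNAs are shown to let a reader see which share a seed with one another or with a miRNA that was not called. They come from RefSeq (GRCm38.p6), where 287 of the 351 hairpins had an entry, and are written from the first base at the left, with the seed (bases 2 to 8) in capitals. Counts are per hairpin, so the arms of a hairpin are not separated. The arm shown is the one usually more abundant, except for mir-34c, where the 3p arm is shown.
miR-184-3p: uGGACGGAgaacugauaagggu
miR-193b-3p: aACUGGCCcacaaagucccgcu
miR-204-5p: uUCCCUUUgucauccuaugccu
miR-141-3p: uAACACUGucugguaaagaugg
miR-183-5p: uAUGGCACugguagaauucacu
miR-24-3p: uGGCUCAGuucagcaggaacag
miR-27b-3p: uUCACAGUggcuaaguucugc
miR-26a-5p: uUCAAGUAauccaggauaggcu
miR-148b-3p: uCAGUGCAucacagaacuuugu
miR-191-5p: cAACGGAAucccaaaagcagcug
miR-34c-3p: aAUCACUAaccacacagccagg
No seed was shared among these lines. Besides these, mir-339, mir-677, mir-6516, mir-874, mir-3535, mir-23b and mir-380 were called.

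Epithelial miRNAs were among the rises. The level of mir-184, which is known from cornea and epidermis, had a lowest, median and highest value of 4.57, 8.86 and 12.1 CPM (TMM-scaled counts, relative to the library's effective size) in midlife and 8.68, 21.7 and 46.3 CPM in late life. All but 2 late-life libraries, that is 8 of 10, lay above every midlife library. The change was 1.45 ± 0.25 on the log2 scale (± SE; adjusted p = 0.00383). The more abundant mir-141, a member of the mir-200 family that represses the Zeb factors and holds cells in an epithelial state, lay at 3701, 4140 and 5049 CPM in midlife and at 3871, 6233 and 8814 CPM in late life. In 6 late-life libraries it was above the midlife range, and it rose by 0.47 ± 0.13 (log2, SE; adjusted p = 0.0496). For mir-183, which lies in a cluster with mir-96 and mir-182 and is best known from sensory cells, the values were 967, 1185 and 1477 CPM in midlife and 1110, 1571 and 2315 CPM in late life. It was above the midlife range in 7 late-life libraries and rose by 0.47 ± 0.13 (adjusted p = 0.0482).

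These 3 were the called members of a keratinocyte and epithelial list of 11 tested miRNAs (27.3%, where 4.84% of all tested were called higher). None was called lower. In the list 9 changes were positive and 2 negative, the lowest at -0.21, where 177 of all tested miRNAs were positive and 174 negative. The list's median log2 change was 0.18 against 0.0013 for all tested miRNAs, but -0.026 with scaling to the total count. Without 24 months replicate 3 the only negative member was mir-200b, of the same family as mir-141, at -0.17 (adjusted p = 0.500). The main keratinocyte miRNAs were not called: mir-203 was at 0.18 (adjusted p = 0.336), or -0.026 with total-count scaling, and mir-205 at 0.16 (adjusted p = 0.399). Both were abundant in every library, with lowest values of 27522 CPM for mir-203 and 14363 CPM for mir-205, which matches the skin label, while the liver miRNA mir-122 did not exceed 101 CPM. The neighbours of the called members differed less: mir-96 was at 0.33 and mir-182 at 0.24, both with mir-183, and mir-200c, beside mir-141, was at 0.10, none of them called (adjusted p from 0.131 to 0.542). Whether neighbours differ from each other was not tested.

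**Figure D1:**
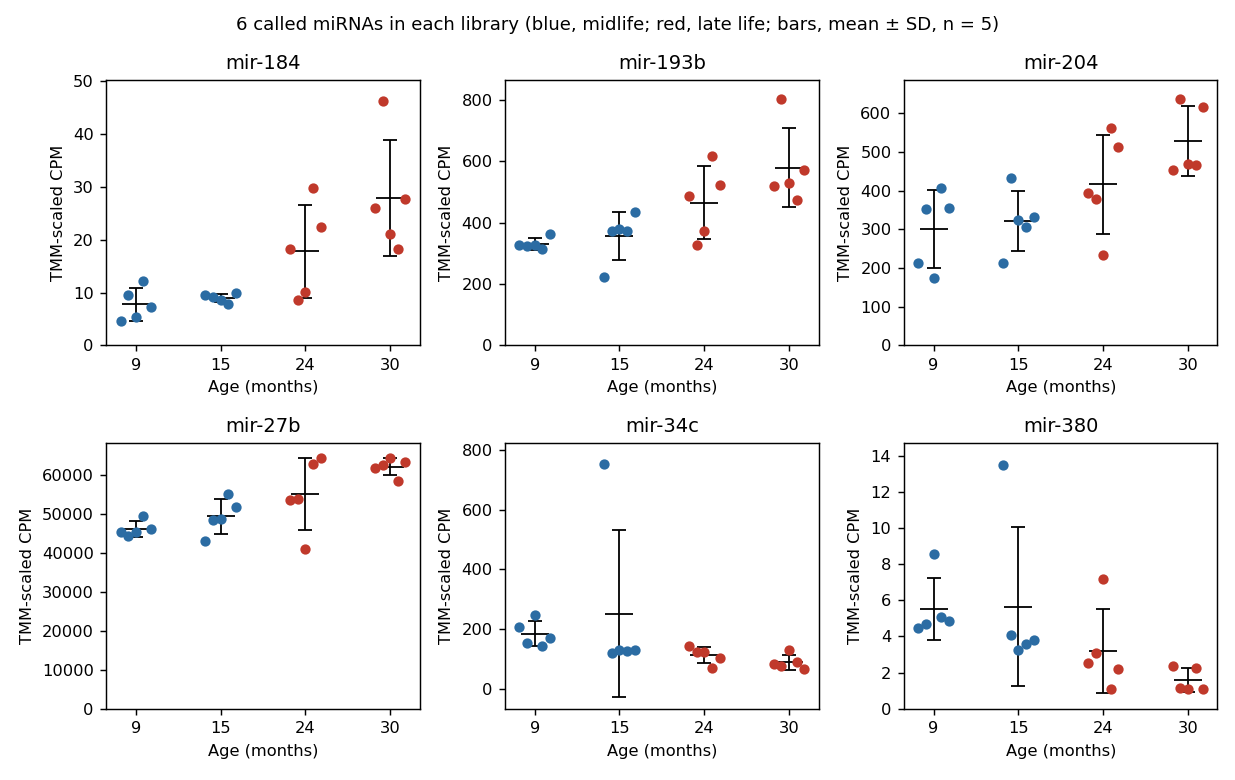
TMM-scaled CPM (y axis) of 6 called miRNAs in each of the 20 libraries, by age in months (x axis; blue, midlife; red, late life; bars, mean ± SD of 5 libraries). mir-184, mir-193b, mir-204 and mir-27b lie higher at 30 months than in most midlife libraries, while 15 months replicate 1 stands at 752.8 CPM for mir-34c and 24 months replicate 3 at 7.17 CPM for mir-380.

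The mir-23b, mir-27b and mir-24-1 hairpins lie within 10 kb of each other and all 3 were higher. In this cluster mir-27b was by far the most abundant, at 42894, 47313 and 54956 CPM (lowest, median, highest) in midlife and 41071, 62138 and 64205 CPM in late life. In 7 late-life libraries it exceeded every midlife library, and in 24 months replicate 3 it was below all of them. It rose by 0.29 ± 0.073 (log2, SE; adjusted p = 0.0297). For mir-23b the values were 1714, 2015 and 2362 CPM in midlife and 2040, 2423 and 3166 CPM in late life, a rise of 0.31 ± 0.077 (adjusted p = 0.0297) with 5 late-life libraries above the midlife range. For mir-24-1 they were 297, 340 and 422 CPM in midlife and 322, 444 and 643 CPM in late life (0.41 ± 0.12, adjusted p = 0.0496). This hairpin overlaps mir-3074-1 on the other strand, and it held 49.0% to 51.1% of the pair's counts in each library, so the pair cannot be told apart in these counts. The partner mir-3074-1 missed the threshold at 0.38 (adjusted p = 0.0630). The mir-24-2 hairpin, whose mature strand is identical to that of mir-24-1, was at 0.30 (adjusted p = 0.0587).

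Among metabolic and pigment-cell miRNAs, mir-193b and mir-204 rose. mir-193b, which takes part in brown fat differentiation, lay at 222, 345 and 435 CPM in midlife and 326, 521 and 804 CPM in late life. It was above the midlife range in 8 of 10 late-life libraries and rose by 0.60 ± 0.13 (log2, SE; adjusted p = 0.0244). It was the single called member of 12 in the adipocyte and metabolic list, whose median was 0.16, or -0.043 with total-count scaling, and its neighbour mir-365-1 was not called at 0.25 (adjusted p = 0.228). mir-204, made from an intron of Trpm3 and abundant in pigment epithelium, lay at 175, 327 and 432 CPM in midlife and 234.3, 466 and 637 CPM in late life. It rose by 0.60 ± 0.18 (adjusted p = 0.0496), with 7 late-life libraries above the midlife range. The melanocyte miRNA mir-211 has the seed of mir-204 and stood at -0.70 ± 0.76 (adjusted p = 0.584).

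The remaining rises included very abundant miRNAs with small changes. The hairpins mir-26a-1 and its copy mir-26a-2 lie within the small phosphatase gene Ctdspl and its relative Ctdsp2. They share 1 mature strand and are uncertain as separate genes, since mir-26a-1 held 49.9% to 50.2% of the counts of the pair. mir-26a-1 lay at 22336, 24136 and 28065 CPM in midlife and 20393, 31755 and 35615 CPM in late life, and both copies rose by 0.29 ± 0.084 (log2, SE; adjusted p = 0.0496). In 8 late-life libraries mir-26a-1 was above every midlife library and in 1 below all of them. mir-191 rose by 0.34 ± 0.093 (adjusted p = 0.0482), from a median of 8859 to one of 10729 CPM, whereas its neighbour mir-425 stood at -0.073 (adjusted p = 0.420). mir-148b, of the mir-148 and mir-152 family that represses the DNA methyltransferase Dnmt1, rose by 0.31 ± 0.073 (adjusted p = 0.0296), with midlife values of 133, 151 and 157 CPM and late-life values of 155, 183 and 223 CPM. Its ranges overlapped only slightly, with 8 of 10 late-life libraries above the highest midlife value. mir-339 also had 8 late-life libraries above the midlife range, at 35.5, 46.2 and 54.6 CPM in midlife and 47.1, 57.9 and 76.7 CPM in late life (0.37 ± 0.087, adjusted p = 0.0296).

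The less abundant rises were those of mir-3535, mir-677, mir-874 and mir-6516. mir-874 rose by 0.69 ± 0.15 (log2, SE; adjusted p = 0.0236), from a median of 4.32 to 7.32 CPM. The changes were 0.68 for mir-677, 0.45 for mir-3535 and 0.43 for mir-6516. Each of the 4 was above the midlife range in 7 or 8 late-life libraries. Just outside the threshold were mir-30a at 0.40 (adjusted p = 0.0528), the neuroendocrine and islet miRNA mir-375 at 0.74 (adjusted p = 0.0573) and mir-34b at -1.07 (adjusted p = 0.0573). Of the 19 calls, 11 had an adjusted p above 0.045, and 38 miRNAs had one under 0.1.

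Called miRNAs had relatives with the same seed that were not called, shown here because a target would meet both. For mir-34c only the 3p arm was matched, so relatives through its usually more abundant 5p arm are not listed.
miR-148a-3p: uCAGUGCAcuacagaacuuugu
miR-152-3p: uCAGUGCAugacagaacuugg
miR-26b-5p: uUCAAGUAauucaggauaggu
miR-27a-3p: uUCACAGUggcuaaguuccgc
miR-200a-3p: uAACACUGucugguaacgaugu
miR-193a-3p: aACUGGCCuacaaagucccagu
miR-211-5p: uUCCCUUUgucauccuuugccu
miR-34b-3p: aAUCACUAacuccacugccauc
In midlife mir-148a was at 18365 CPM on average and in late life at 15305 CPM, far above mir-148b, and its change was -0.26 ± 0.14 (log2, SE; adjusted p = 0.261). mir-152 stood at -0.25 (adjusted p = 0.243). The changes of mir-26b, mir-27a, mir-200a and mir-193a were between 0.043 and 0.082, with adjusted p of 0.615 or more. Whether a called miRNA and its relative changed by different amounts was not tested.

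The falls were those of mir-34c and mir-380. mir-34c, a p53 target made together with mir-34b, lay at 120, 148 and 753 CPM (lowest, median, highest) in midlife and 65.7, 96.1 and 142.8 CPM in late life. In 6 late-life libraries it was below every midlife library. It fell by 1.12 ± 0.31 (log2, SE; adjusted p = 0.0496). The highest midlife value belonged to 15 months replicate 1, the next being 247.7 CPM, and without that library the change was -0.63 (adjusted p = 0.0368). mir-34b had its highest value, 72.4 CPM, among midlife libraries too, with a late-life range of 5.98 to 13.4 CPM. mir-380, of the Dlk1-Dio3 region, lay at 3.25, 4.58 and 13.5 CPM in midlife and 1.11, 2.22 and 7.17 CPM in late life, and fell by 1.18 ± 0.35 (adjusted p = 0.0496). All late-life libraries except 24 months replicate 3 were below every midlife library. Of the 20 fits that left out 1 library each, the call of mir-34c was kept in 11 (adjusted p up to 0.101) and that of mir-380 in 4.

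**Figure D2:**
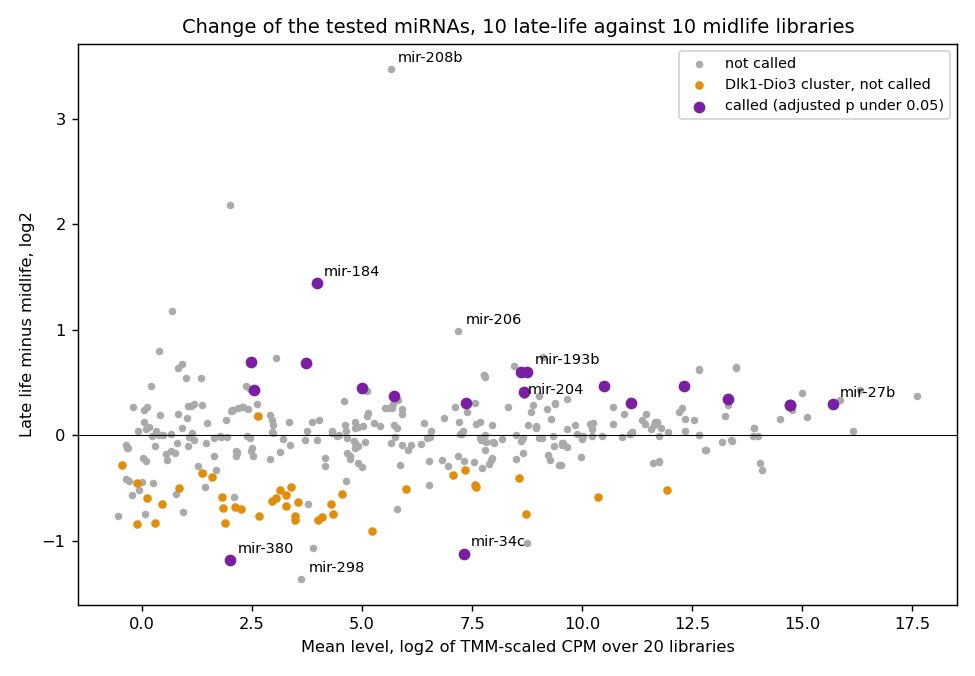
Log2 change from midlife to late life (y axis) against the mean level over the 20 libraries in log2 CPM (x axis), with 1 point per tested miRNA. Purple points are the 19 called miRNAs and orange points the members of the Dlk1-Dio3 cluster that were not called, all but mir-1247 of which lie below 0.

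The Dlk1-Dio3 cluster was the largest list, with 41 of 58 members tested. Only mir-380 was called, yet 40 of the 41 changes were negative, with a median of -0.60 against 0.0013 for all tested miRNAs. The exception was mir-1247, at 0.19 (adjusted p = 0.831). The mean level of the members averaged 3.95 ± 0.45 log2 CPM in midlife and 3.001 ± 0.91 in late life (SD, n = 10 each). One late-life library stood apart: 24 months replicate 3 was at 5.40 log2 CPM, above every midlife library, and the next late-life library was at 3.21. For mir-127, an abundant member that is antisense to the imprinted gene Rtl1, the range was 2612 to 7782 CPM in midlife, while late-life libraries other than 24 months replicate 3 lay between 1005 and 2700 CPM and that library was at 15940 CPM. mir-409 showed the same split, with 120.8 CPM in that library and 8.95 to 26.6 CPM in the other 9.

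24 months replicate 3 was singled out by its levels of these same miRNAs, mir-27b included. The fit without it is therefore no separate support, and members of 1 region are not separate results. Without it the cluster gave 39 members lower of 41, none higher, with a median of -1.35. In that fit 102 of 356 miRNAs were called (28.7%), 53 higher (14.9%) and 49 lower (13.8%), and all 19 called miRNAs of the full comparison were among them. There mir-409 was at -1.65 ± 0.26 (log2, SE; adjusted p = 0.000225) and mir-127 at -1.35 ± 0.24 (adjusted p = 0.000311), and mir-27b had the smallest p, at 0.36 ± 0.050 (adjusted p = 0.000168). Without 15 months replicate 1, the highest midlife library at 4.79 log2 CPM, the cluster's median was -0.43 and 0 members were called. What sets 24 months replicate 3 apart was not tested.

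**Figure D3:**
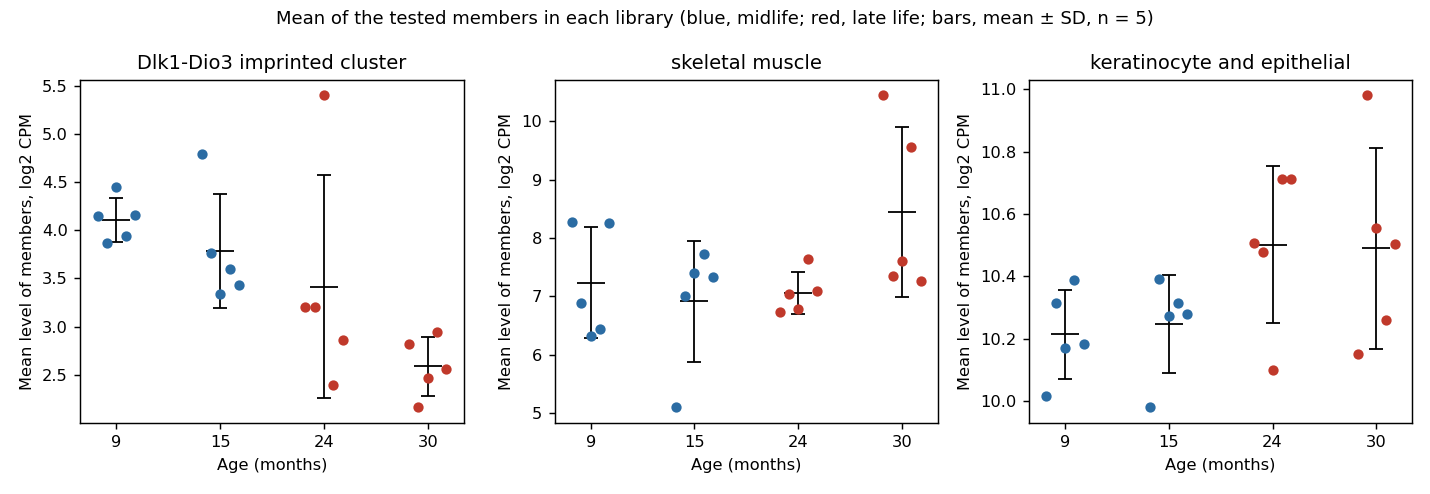
Mean log2 CPM (y axes, each with its own range) over the members tested in the Dlk1-Dio3, skeletal muscle and keratinocyte lists in each library, by age in months (bars, mean ± SD of 5 libraries). 24 months replicate 3 stands at 5.40 in the first panel, and 30 months replicates 1 and 4 at 10.4 and 9.55 in the second.

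The pooled ages were also compared with each other. Between 15 and 9 months 0 of 351 miRNAs were called, 5 having an unadjusted p under 0.05. Between 30 and 24 months edgeR again called 0, but 93 had an unadjusted p under 0.05, the smallest adjusted p was 0.112, and DESeq2 called 8 higher and 19 lower. Set against the 10 midlife libraries, the 24-month libraries alone gave 0 calls (16 at an unadjusted p under 0.05) and the 30-month libraries gave 120 (34.2%), 62 higher (17.7%) and 58 lower (16.5%). The 19 pooled calls were all among these 120. Both counts moved when libraries that stand apart were left out, in fits added after seeing the data. Without 24 months replicate 3 the 24-month libraries gave 7 miRNAs higher (1.97%) and 25 lower (7.02%), and 6 of the 17 rises were among the 7, mir-184 at 1.24 ± 0.27 (log2, SE; adjusted p = 0.0234) and mir-27b at 0.30 ± 0.059 (adjusted p = 0.0234) included. Without 30 months replicates 1 and 4 the 30-month libraries gave 28 higher (7.71%) and 16 lower (4.41%). Between 30 and 24 months edgeR called 0 in either fit, with 50 miRNAs at an unadjusted p under 0.05 in the first and 69 in the second. These comparisons share the midlife libraries, and their 24-month and 30-month libraries are part of the late-life group. Overlaps with the pooled calls are therefore no separate support.

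The 17 rises were chosen from these same libraries, so changes above midlife at 24 and 30 months follow largely from that choice. For these 17, the mean at 24 months was above both midlife age means in 17 and the mean at 30 months was above that at 24 months in 17. The shares of all tested miRNAs with these orders were not computed. All 17 were also among the miRNAs called at 30 months, so the order of 24 and 30 months is not free of the choice either. These counts are no result about the 17. Their median change was 0.31 at 24 months and 0.51 at 30 months, each against midlife, where all tested miRNAs had medians of -0.00087 and 0.011. mir-184, for example, averaged 7.77 CPM at 9 months, 9.02 at 15, 17.9 at 24 and 27.9 at 30 months, with changes against midlife of 1.09 (adjusted p = 0.315) and 1.74 ± 0.27 (adjusted p = 0.00153). For mir-27b the means were 46107, 49374, 55070 and 62035 CPM. mir-183 was nearly as high at 24 as at 30 months, at 0.43 and 0.51. For mir-191 and the mir-26a copies the 24-month change was well below the 30-month change, at 0.20 and 0.47 for mir-191 and 0.15 and 0.41 for mir-26a-1. No difference between 30 and 24 months was called for any of them.

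**Figure D4:**
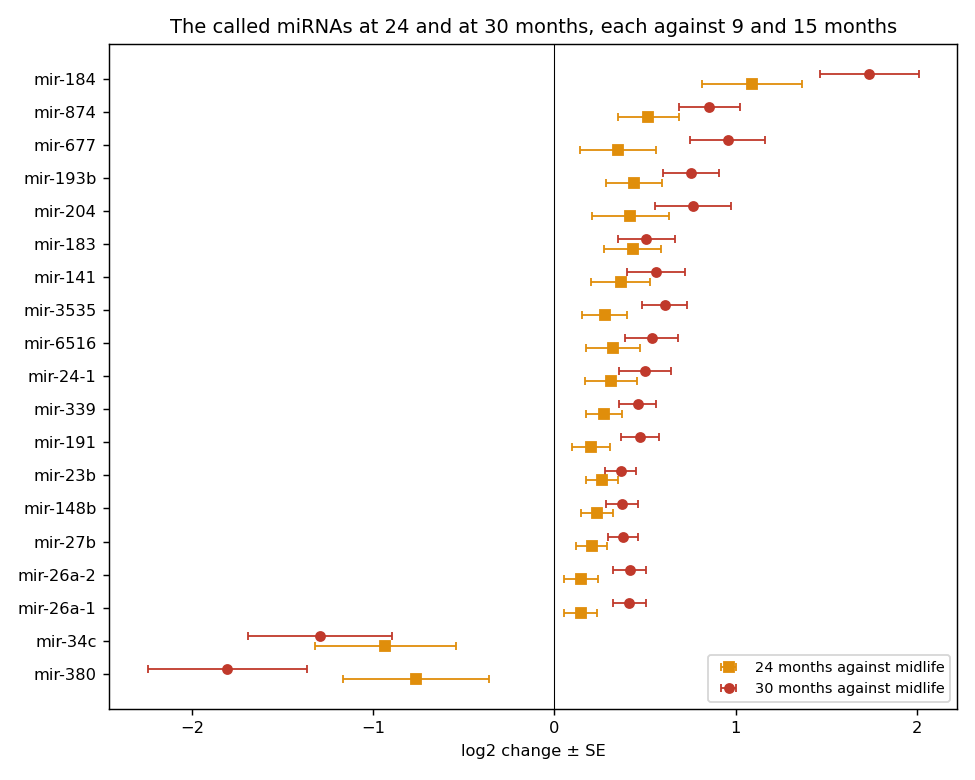
Log2 change ± SE of the 19 called miRNAs at 24 months (orange squares) and 30 months (red circles), each against the same 10 midlife libraries. Every red circle lies farther from 0 than its orange square, from 1.74 against 1.09 for mir-184 to 0.37 against 0.26 for mir-23b among the rises.

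For the Dlk1-Dio3 cluster the values at 24 months depended on 1 library. With all 5 libraries the members had a median of -0.057 at 24 months with 0 called, and -1.52 at 30 months with 33 of 41 lower, against 16.5% of all tested miRNAs. The 24-month libraries other than replicate 3 had list means of 2.39 to 3.21 log2 CPM, below the lowest midlife library at 3.33. Without that replicate the 24-month median was -1.16 with 24 of 41 lower (7.02% of all tested). The 30-month median was then -1.50 with 36 of 41 lower (16.6% of all tested). Between 30 and 24 months 0 members were called, with a median of -1.44 with all libraries and -0.35 without that replicate. Without 30 months replicates 1 and 4, 7 of 44 were lower at 30 months (4.41% of all tested), with a median of -1.77.

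As a list, the muscle miRNAs were high at 30 months through those last 2 libraries. The 9 tested skeletal muscle miRNAs, such as mir-1a and mir-133a of muscle fibres and mir-206 of regenerating fibres, gave 0 calls in the pooled comparison. All changes were positive, with a median of 0.65, and 2 were higher without 24 months replicate 3 (14.9% of all tested). At 30 months 9 of 9 were higher than in midlife (17.7% of all tested), with a median of 1.14, but without 30 months replicates 1 and 4 none was called and the median was -0.040. At 24 months the median was -0.072 with 0 called, and 0 were called between 30 and 24 months. mir-133a-1 lay at 1476, 8833 and 16615 CPM in midlife and 6847, 9031 and 48725 CPM in late life (0.65 ± 0.39, log2, SE; adjusted p = 0.315). Its highest late-life values came from 30 months replicates 1 and 4, and without these 2 libraries its pooled change was -0.060 and the list's pooled median -0.061. mir-206 stood at 0.99 (adjusted p = 0.0630), or 0.48 without them, and mir-208b of slow and heart muscle at 3.47 ± 1.31 (adjusted p = 0.123), or -0.28 without them. At 30 months against midlife without these 2 libraries, mir-206 was still at 0.83 ± 0.28 (adjusted p = 0.0552) and mir-208b at 0.77 ± 1.21 (adjusted p = 0.726). How much muscle lay under the skin samples was not measured, and more muscle cells and more of these miRNAs per cell cannot be told apart in bulk RNA, nor can the same for any cell type here.

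The other lists gave few calls in the pooled comparison. In the mir-29 family, which represses collagens, 0 of 4 were called, with a median of 0.26. Total-count scaling gave 0.043, and leaving out 30 months replicates 1 and 4 gave 0.14, with 0 called in either. Without 24 months replicate 3 the mir-29 median was 0.34 and 3 of 4 were higher (14.9% of all tested). At 30 months 3 of 4 were higher (17.7% of all tested), and 0 without 30 months replicates 1 and 4 (7.71% of all tested), with a median of 0.20 there. The mesenchyme and smooth muscle list had 0 of 7 called and a median of -0.25. With total-count scaling 3 were lower (2.85% of all tested), with a median of -0.45. Without 24 months replicate 3 there were 1 higher and 3 lower (14.9% and 13.8% of all tested). At 30 months 1 was higher and 4 lower, where 17.7% and 16.5% of all tested were. Without 30 months replicates 1 and 4, 0 were higher and 4 lower there (7.71% and 4.41% of all tested), with a median of -0.47. All 7 tested mir-15 and mir-16 members, which restrain the cell cycle, had negative changes, with a median of -0.14 and 0 called, although 2 were positive when libraries were scaled by relative log expression (RLE), another edgeR option. With total-count scaling their median was -0.34 and 3 were lower (2.85% of all tested). At 30 months 5 were lower (16.5% of all tested). There were 3 without 24 months replicate 3 (16.6% of all tested) and 0 without 30 months replicates 1 and 4 (4.41% of all tested). The 30-month medians of these 2 fits were -0.15 and -0.16. In the erythroid list 0 of 5 were called (median 0.13, or -0.077 with total-count scaling). There were 2 higher without 24 months replicate 3 (14.9% of all tested) and 3 higher at 30 months (17.7% of all tested). At 30 months mir-486b, found in red cells and muscle, rose by 1.06 ± 0.22 (log2, SE; adjusted p = 0.00645). Without 30 months replicates 1 and 4 it was at 0.56 (adjusted p = 0.0582) and 0 of the list were called (7.71% of all tested were higher). The list's 30-month median was 0.40 in that fit and 0.43 without 24 months replicate 3. Of 8 hair follicle cycle miRNAs only mir-24-1 was called. The growing-follicle miRNA mir-31 ranged from 112 to 1389 CPM in midlife and from 35.9 to 1522 CPM in late life and was not called (-1.02 ± 0.64, adjusted p = 0.321). Of 7 in the p53 and senescence list only mir-34c was called. None was called among 14 immune, 12 let-7 or 14 mir-17-92 miRNAs, 9 neural, 7 X-linked of the mir-322 and mir-503 cluster, 6 Hox-cluster or 2 endothelial ones, and these lists had medians between -0.16 and 0.18, and between -0.35 and -0.050 with total-count scaling. The hair follicle cycle list had a median of -0.0066, the melanocyte list of -0.047 and the p53 and senescence list of 0.12, or -0.088 with total-count scaling. Single tested miRNAs stood for 3 lists and were not called: mir-122 of liver was at 0.42, the hypoxia-induced mir-210 at -0.038 and mir-335, from the imprinted Mest gene, at -0.29. The imprinted Gnas pair was not called either, although its median was -0.96, with mir-298 at -1.36 ± 0.73 (adjusted p = 0.261).

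Set beside the step from 2 months to midlife, fitted over all 25 libraries with 165 of 364 miRNAs called (45.3%), the 17 rises split into 8 that were also higher in midlife than at 2 months (background 20.1%) and 9 that were not called there. Without 15 months replicate 1, 5 of the 17 were higher (14.5% of all tested). mir-26a-1 had risen by 0.50 and mir-24-1 by 0.61 by midlife, mir-193b by 0.60 and mir-141 by 0.58, whereas mir-148b was at -0.015 and mir-183 at -0.32 (adjusted p = 0.890 and 0.0900). mir-34c went the other way: it was higher in midlife than at 2 months by 1.10 (adjusted p = 0.0221) before its late-life fall, or by 0.48 without 15 months replicate 1 (adjusted p = 0.0260). mir-380 was lower in midlife by 0.88 on the log2 scale, and 45 of 46 Dlk1-Dio3 members were lower then (background 25.3%), with a median of -1.44, or 46 of 46 without 15 months replicate 1 (28.4% of all tested). The 2 steps share the midlife libraries, and their likeness was not tested.

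In each library the share of counts held by its 10 leading miRNAs was computed. It was 63.4% ± 3.72 in late life and 59.7% ± 1.46 in midlife (SD, n = 10 each), a difference of 3.68 percentage points (2-sided permutation test, 100000 resamples, p = 0.00926). For the 5 most abundant the difference was 2.80 points and missed the threshold (permutation p = 0.0740). The ranges overlapped, at 57.1% to 68.2% and 57.8% to 62.4%, and the differences within the 3 sequencing lanes were 1.295, 5.98 and 4.18 points. The most abundant was mir-10b, of a Hox cluster, at 0.38 ± 0.15 (log2, SE; adjusted p = 0.143). Next came mir-143 at 0.43 ± 0.14 (adjusted p = 0.0725), mir-22 at 0.042 (adjusted p = 0.938) and mir-10a at 0.34 ± 0.11 (adjusted p = 0.0792). Their late-life medians were 224442 CPM for mir-10b, 95468 for mir-143, 61992 for mir-22 and 64382 for mir-10a, against 169645, 69173, 71547 and 52152 in midlife. These changes and medians are TMM-scaled, whereas the share is of the total count. With total-count scaling the changes were 0.13 for mir-10b, 0.21 for mir-143, -0.18 for mir-22 and 0.11 for mir-10a.

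The scaling of the libraries differed between the groups as well. The TMM factors averaged 1.08 ± 0.061 in midlife and 0.94 ± 0.13 in late life. With scaling to the total count alone, the median change of all tested miRNAs moved from 0.0013 to -0.20 and the calls became 1 higher and 10 lower, against 17 and 2 with TMM. Relative to that shift, mir-184 (1.21, adjusted p = 0.0195) and mir-34c (-1.33, adjusted p = 0.0331) were the called miRNAs kept. No called miRNA changed its sign, but all rises were smaller than with TMM and several came near 0. The smallest was mir-26a-1 at 0.066 (adjusted p = 0.455), with mir-27b at 0.080 (0.423) and mir-148b at 0.091 (0.397). The larger ones included mir-874 at 0.48 (0.0706) and mir-193b at 0.39 (0.0917). Every rise was positive in each of the 3 lanes and both falls were negative in each, where 179 of all 351 miRNAs kept one sign. The lanes split the same 20 libraries that gave the calls, so this likeness is no separate support. No miRNA had all 10 late-life libraries above, or all 10 below, the 10 midlife libraries.

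The calls were near the threshold and moved with single libraries. Leaving out each library in turn gave between 4 and 102 calls. Of the 19 calls, 4 held in all 20 of these fits: mir-184, mir-874, mir-193b and mir-339. Only mir-184 among them was also called with total-count scaling, where mir-339 was at 0.16 (adjusted p = 0.253). The numbers were 4 without 24 months replicate 5, 30 months replicate 4 or 30 months replicate 5, 5 without 24 months replicate 1, 9 without 9 months replicate 1, and 10 and 11 without 30 months replicates 1 and 2. They were 29 and 33 without 15 months replicates 3 and 2, 49 without 24 months replicate 2 and 102 without 24 months replicate 3.

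**Figure D5:**
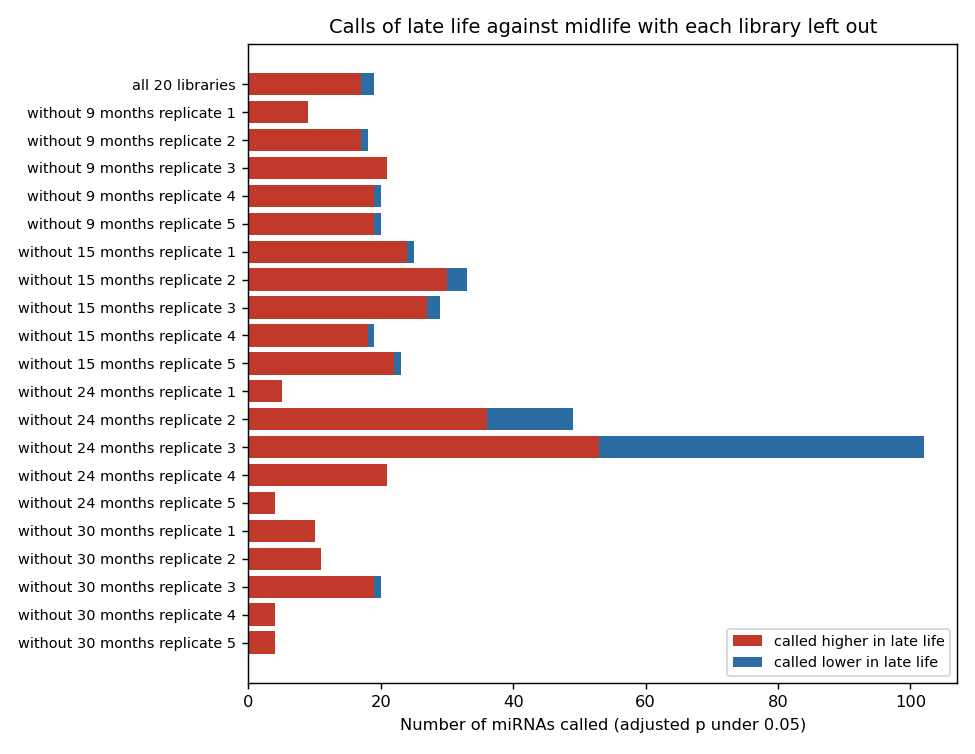
Number of miRNAs called higher (red) and lower (blue) in late life (x axis) for all 20 libraries and with each library left out (y axis). The bars run from 4 calls to 102, the latter without 24 months replicate 3.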

How the data were processed

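Per the labels' protocols, library preparation used the TruSeq small RNA kit. The authors deposited raw read counts per miRNA hairpin. Tools named in the submitters' processing notes are bcl2fastq 1.8.4, Trimmomatic 0.36 and SAMtools 1.3.1-9. Which aligner, annotation and build were used is not given in the sources used here, nor how reads matching several hairpins were handled. Lanes were read from the column names. Total counts ran from 7200509 to 14005646 per library, and same-age libraries differed far beyond counting error (chi-square per degree of freedom 80.2 to 4033 over 40 pairs).

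Groups follow the age labels. Replicate numbers only name libraries. The labels do not say that each library is a separate animal, so p-values measure the spread between these samples. Tests used edgeR 4.0.16 (R 4.3.3) on the counts, with filterByExpr per age (minimum count 10, minimum total 15), TMM scaling, glmQLFit and glmQLFTest with 2 groups of 10, and adjustment over all 351 miRNAs. Age contrasts used 1 mean per age over 20 libraries, and the 2-month step all 25. SEs are approximate, from the change and its test statistic. The procedure was tested on simulated counts. Log2 list means used a prior count of 2.

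Named were the 10 largest rises and falls among called miRNAs with a mean of at least 10 CPM, up to 3 called members per list or else its most abundant member, and the 10 most abundant miRNAs. Other miRNAs, such as mir-23b, mir-148b, mir-874, mir-6516, mir-34b, mir-206, mir-375, mir-409, mir-127 and the neighbours and seed relatives, were named after their values were seen. The comparison and the 22 lists were chosen with earlier results of these data known. Alternatives were other scalings, DESeq2 1.42.0, limma 3.58.1 (voom), other filters, lane as a term, and leaving out libraries or ages. Hairpin neighbours and hosts come from a reference annotation of GRCm38.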

Additional observations from a re-analysis of the deposited data

Results flagged for a closer look

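Libraries that lay far from the other 9 of their group were sought among 126 sets of 10 values (Dixon's ratio above 0.466), and 12 were found. Chance gives about 1 in 20. All 12 belonged to 24 months replicate 3 or 15 months replicate 1.

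In 24 months replicate 3, mir-27b was at 41071 CPM (the nearest late-life library at 53557) and mir-204 at 234.3 CPM (378.5), both low, while mir-380 was at 7.17 CPM (3.06) and the Dlk1-Dio3 mean at 5.40 log2 CPM (3.21), both high. In 15 months replicate 1, mir-34c was at 752.8 CPM (the nearest midlife library at 247.7), mir-351 of the X-linked cluster at 205.1 CPM (114.6) and the neural miRNA mir-338 at 279 CPM (154.7), all high. The X-linked list mean was at 3.99 log2 CPM (3.57) and the p53 and senescence list mean at 6.52 (5.98), also high. In that library mir-193b was at 222 CPM (315), mir-133a-1 at 1476 CPM (5897) and mir-22 at 43286 CPM (63065), all low. What sets these libraries apart was not tested.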

How the results depend on the processing

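No paired analysis was possible because the labels give no replicate numbers shared across ages. All values of the 19 called miRNAs kept their sign under every alternative, but 270 of 776 missed the threshold. Calls higher and lower were 29 and 1 with RLE scaling, 1 and 10 when scaled to the total count, 3 and 1 with upper quartile scaling, 42 and 16 with DESeq2, 7 and 1 with limma-voom, and 52 and 65 when it weighted samples by quality. They were 10 and 0 with a robust spread, 1 and 0 without a filter (922 tested), 26 and 3 with at least 10 CPM in 5 libraries, 1 and 0 at an adjusted p of 0.01, and 18 and 1 with copies summed. They were 16 and 6 as a contrast of age means over 25 libraries, and 9 and 0 with lane as a term. Without the 24-month, 30-month, 9-month or 15-month libraries they were 61 and 67, 0 and 0 (16 at an unadjusted p under 0.05), 0 and 0 (37), and 8 and 1. Without 30 months replicates 1 and 4 they were 12 and 0. Alternatives added after seeing the data left out 24 months replicate 3 and 15 months replicate 1 (53 and 46), or these and 30 months replicates 1 and 4 (37 and 50). With 1 library left out, calls higher ran from 4 to 53 and lower from 0 to 49. For 30 against 24 months DESeq2 called 8 higher and 19 lower, and with 1 library left out edgeR called 0 to 2 higher and 0 lower. The top share difference ran from 3.14 to 4.38 points with 1 library left out, and for the 5 most abundant it was 2.80 points (permutation p = 0.0740). The causes were not tested, except that fewer libraries or more miRNAs were tested in some by construction.

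Of 21 named miRNAs without a call, 13 changed sign somewhere. With total-count scaling mir-351 was at -0.042, mir-29a at -0.017, mir-181a-2 at -0.12, mir-126a at -0.086, mir-92a-1 at -0.024, mir-338 at -0.21, mir-22 at -0.18 and mir-203 at -0.026. Upper quartile scaling gave -0.055 for mir-338 and -0.026 for mir-22. RLE scaling and DESeq2 gave 0.035 for let-7f-2, which was 0.0070 with the stricter filter, 0.0021 with copies summed and 0.0078 with lane as a term. mir-22 was at -0.026 with limma-voom and -0.20 with quality weights. mir-338 was at -0.030 without a filter and -0.0034 over 25 libraries. Without the 24-month libraries mir-181a-2 was at -0.032. Without the 30-month libraries mir-133a-1 was at -0.0847, mir-486b at -0.014, mir-338 at -0.11, mir-210 at 0.068, mir-122 at -0.44 and mir-22 at -0.23. Without the 9-month libraries let-7f-2 was at 0.024 and mir-338 at -0.11, and without the 15-month libraries let-7f-2 was at 0.034 and mir-210 at 0.12. Without 30 months replicates 1 and 4 mir-133a-1 was at -0.060, mir-338 at -0.013, mir-210 at 0.10 and mir-22 at -0.27. Without 24 months replicate 3 and 15 months replicate 1 let-7f-2 was at 0.021 and mir-210 at 0.013. Without all 4 libraries mir-133a-1 was at -0.15, mir-181a-2 at -0.00458, mir-210 at 0.15 and mir-22 at -0.36. With 1 library left out let-7f-2 ran from -0.052 to 0.036, mir-338 from -0.056 to 0.20, mir-210 from -0.12 to 0.049 and mir-22 from -0.17 to 0.13.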
